A study of Rattus norvegicus with 12 samples.

Results

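The Kruppel-like factor genes Klf2, Klf3, Klf4, Klf5, Klf6, Klf7, Klf10, Klf11, Klf12 and Klf13 were followed in the rat forebrain after a new environment. Every probe set whose platform annotation gives exactly 1 gene symbol, equal to 1 of these names, was taken, which gave 27 probe sets for 10 genes out of 31042 probe sets for transcripts (14217 genes have such a probe set). The exposed animals were 6 male Long Evans rats, 6 weeks old, that spent 3 hours in a new environment with objects differing in shape and colour, and the control animals were 6 such rats left in a standard laboratory cage. All 12 had been housed singly for several days, carried no stated genetic change, and each gave forebrain RNA for 1 Affymetrix array. Values are probe set intensities in arbitrary linear units as deposited, and changes are exposed minus control on the log2 scale with the standard error (SE) that limma fitted, n = 6 per group. The 10 genes were chosen by their intensity changes in this same comparison, in both directions, so their changes are given as a description, with no p-value, and "called" says only that a probe set passed a Benjamini-Hochberg adjusted p of 0.05 in limma over all 31042.

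Kruppel-like factors are transcription factors that bind GC-rich and CACCC sequences through zinc fingers at the end of the protein, and members that recognise much the same DNA differ in the cofactors they recruit. Klf2, Klf4, Klf5, Klf6 and Klf7 act mainly as activators, Klf3 and Klf12 recruit the corepressor CtBP, and Klf10, Klf11 and Klf13 recruit the corepressor Sin3. In the brain the family is known for control of neurite growth, and Klf2 and Klf4 are known in blood vessels as genes that endothelial cells switch on under flow.

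The upstream sequences of the 2 genes with a probe set called lower are shown because they differ in the boxes that Kruppel-like and related factors bind. They are the 250 bases before the annotated start, from RefSeq on build GRCr8, printed 5′ to 3′, with matches to any searched motif in capitals: GC boxes in both, and in Klf6 also the CArG box, which comes first.
Klf11 (chr6:47014198-47014447, plus strand): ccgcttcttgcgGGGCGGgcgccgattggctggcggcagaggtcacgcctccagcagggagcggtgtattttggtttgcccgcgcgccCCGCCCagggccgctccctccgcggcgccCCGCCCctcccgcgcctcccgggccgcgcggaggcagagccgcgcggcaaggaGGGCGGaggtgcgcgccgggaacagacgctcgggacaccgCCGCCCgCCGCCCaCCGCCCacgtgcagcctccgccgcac
Klf6 (chr17:69458479-69458728, minus strand): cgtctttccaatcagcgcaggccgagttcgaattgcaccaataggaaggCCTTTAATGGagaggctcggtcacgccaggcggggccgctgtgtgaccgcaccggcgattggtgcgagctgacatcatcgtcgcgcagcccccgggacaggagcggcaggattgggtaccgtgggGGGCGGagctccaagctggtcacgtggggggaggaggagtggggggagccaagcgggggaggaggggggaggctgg
The Klf11 window held 7 matches to the GC box (GGGCGG, either strand), and the Klf6 window held 1. G and C made up 79.2% of the Klf11 window and 67.2% of the Klf6 window, and the shares that follow are not matched for this. At least 1 match stood in 30.5% of the 33469 windows of that length in the table, and at least 7 in 0.347%. The Klf6 window also held 1 CArG box, the element bound by serum response factor, which 1.5% of all windows hold.

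The table lists 7 of the 10 genes and not Klf2, Klf10 or Klf13. The Klf4 window was not used, because it lies within the transcribed leader known from the mouse gene, which left 6. The CACCC box was in 3 of the 6 (Klf3, Klf5 and Klf7; 49.2% of all windows), the GC box in 3 (Klf6, Klf7 and Klf11), and the CRE half-site TGACG in 1, Klf5 (18.2% of all windows). The full CRE TGACGTCA, which contains the half-site, the MEF2 site, the EGR site GCGNGGGCG, which shares letters with the GC box, and the AP-1 site TGANTCA had no match in these 6 windows on either strand. They were held by 1.59%, 2.96%, 4.29% and 6.34% of all windows. A match is a string of letters and not a measured binding site.

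Fos, a subunit of AP-1 induced by neuronal activity, served to check the exposure and had 1979 ± 220 in exposed animals and 296 ± 72.3 in control animals (SD, n = 6 each; adjusted p = 8.65e-06 in limma). Median intensity of the 12 arrays ran from 234.7 to 244.9, and precision rests on 6 arrays a group. All measured neuron (15), astrocyte (9), oligodendrocyte (9) and microglia (11) markers were above the floor of 53.9 on at least 1 array. This floor is the 20th percentile of all values and not a detection limit. Of these markers 0 were called in limma at the brightest probe set (background 2.62% higher and 0.844% lower of 14217 genes). An unadjusted p under 0.05 was reached by 6 of them, and by 4093 of all 31042 probe sets. The 31042 are not a like set, since 5224 of them were at the floor on all arrays and give no change. Exposed animal 3 had the largest 3′ minus 5′ difference for Gapdh and beta-actin, which tracks RNA quality (0.586, the others 0.332 to 0.443 on the log2 scale). The mean was 0.45 in exposed animals (0.391 to 0.586) and 0.389 in control animals (0.332 to 0.439), so the measure differed between groups on average. Its part in the calls was not tested beyond a fit with it as a covariate. In whole tissue, fewer cells of a type and less RNA per cell cannot be told apart.

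Members moved both ways. Of the 27 member probe sets 3 were called higher (11.1%, background 1.97% of all probe sets) and 2 were called lower (7.41%, background 0.599%); either direction has a background of 2.56%. The same 3 were above and 2 below every control animal (background 1.94% and 0.702%). These shares only describe genes picked for this contrast. The 3 were the only Klf4 and Klf10 probe sets and the brightest of Klf2, and the 2 belonged to Klf11 and Klf6. Another 4 probe sets, 1 each of Klf2, Klf5, Klf7 and Klf12, were at the floor on all 12 arrays and give no change, so 23 were measured. The 23 changes ran from -0.43 to 0.91 with a median of 0.02, 12 positive and 11 negative. With the 4 at the floor kept in, the median of the 27 was 0. It was also 0 over all 31042, of which 5224 were at the floor on all arrays.

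**Figure D1:**
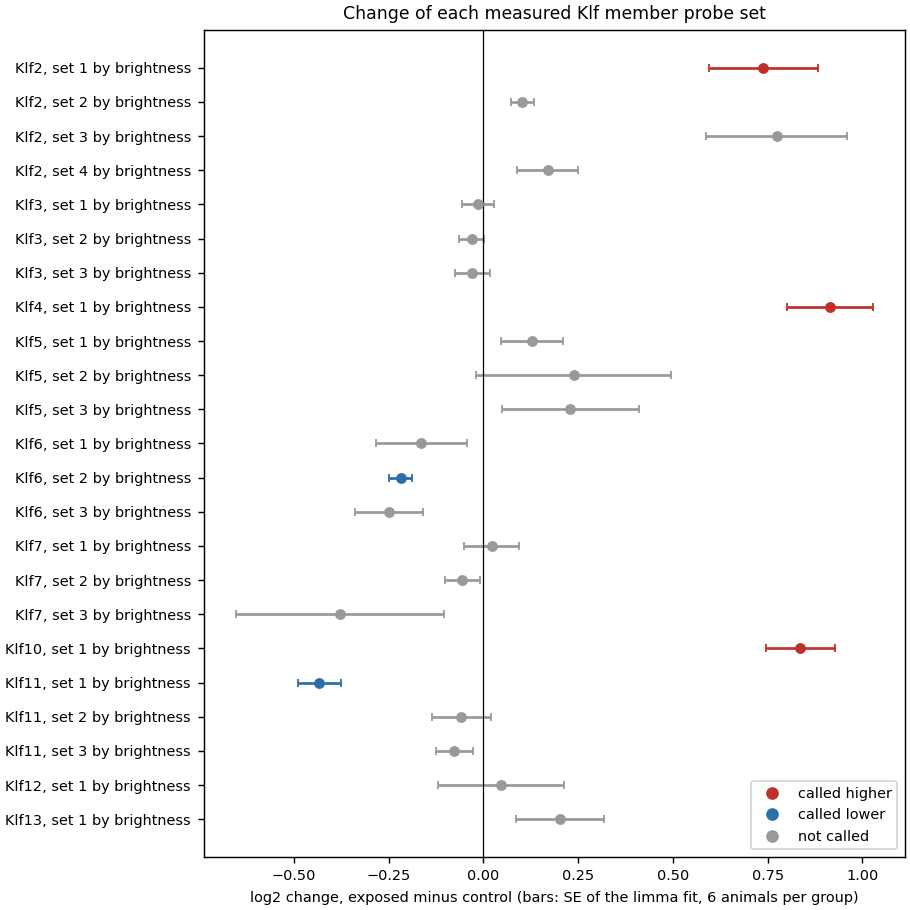
Log2 change (exposed minus control, horizontal axis) of the 23 measured member probe sets, 1 row each, numbered by brightness within a gene, with bars for the SE (n = 6 per group). Klf4, Klf10 and 1 of 4 Klf2 probe sets are called higher (red), 1 probe set each of Klf11 and Klf6 is called lower (blue), and Klf3 and Klf12 lie near 0.

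Among the activators, Klf4 had the highest change of the 23. Its probe set 1387260_at ran from 454 to 622 with a median of 556 in exposed animals, and from 231 to 349 with a median of 283 in control animals. The groups did not overlap, and the lowest exposed animal was above the highest control animal. The change was 0.91 ± 0.11, or 1.88-fold. It was 1.16 within the animals numbered 1 to 3 in the labels and 0.67 within those numbered 4 to 6.

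Klf2 gave 2 pictures, depending on the probe set. The brightest, 1376569_at, ran from 907 to 1070 with a median of 1026 in exposed animals, and from 431 to 775 with a median of 621 in control animals, a change of 0.74 ± 0.14 (1.67-fold). The groups did not overlap, and the SD was 70.5 in exposed animals and 144 in control animals. Its controls fell into a low and a high set, with 431, 540 and 504 in animals 1 to 3 and 702, 752 and 775 in animals 4 to 6.

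The third brightest Klf2 probe set, 1386041_a_at, had nearly the same change, 0.77 ± 0.19, and was not called. It ran from 214 to 329 in exposed animals and from 110 to 218 in control animals, and 5 of 6 exposed animals were above every control. Its control values again split by number, at 110, 137 and 138 against 191, 209 and 218. The other measured pair had smaller changes and no call, 0.10 ± 0.03 at 1375248_at (311 to 343 in exposed animals, 290 to 319 in control animals) and 0.17 ± 0.08 at 1394068_x_at (190 to 257 in exposed animals, 171 to 207 in control animals). The last of these shares its source sequence with 1386041_a_at in the annotation.

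The Klf2 change at the brightest probe set was 0.99 within animals 1 to 3 and 0.49 within animals 4 to 6. What the numbers stand for is not stated. In control animals the RNA quality difference also split by number, at 0.414 to 0.439 in animals 1 to 3 and 0.332 to 0.373 in animals 4 to 6, and its part in the Klf2 values was not tested apart from the covariate fit, where the change was 0.91. The call was lost without exposed animal 1 (change 0.72), without control animal 3 (0.69), and with exposed animals 3 and 5 left out (0.75). It was also lost with the mean of endothelial and mural markers, below called endothelial markers, as a covariate (0.68).

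**Figure D2:**
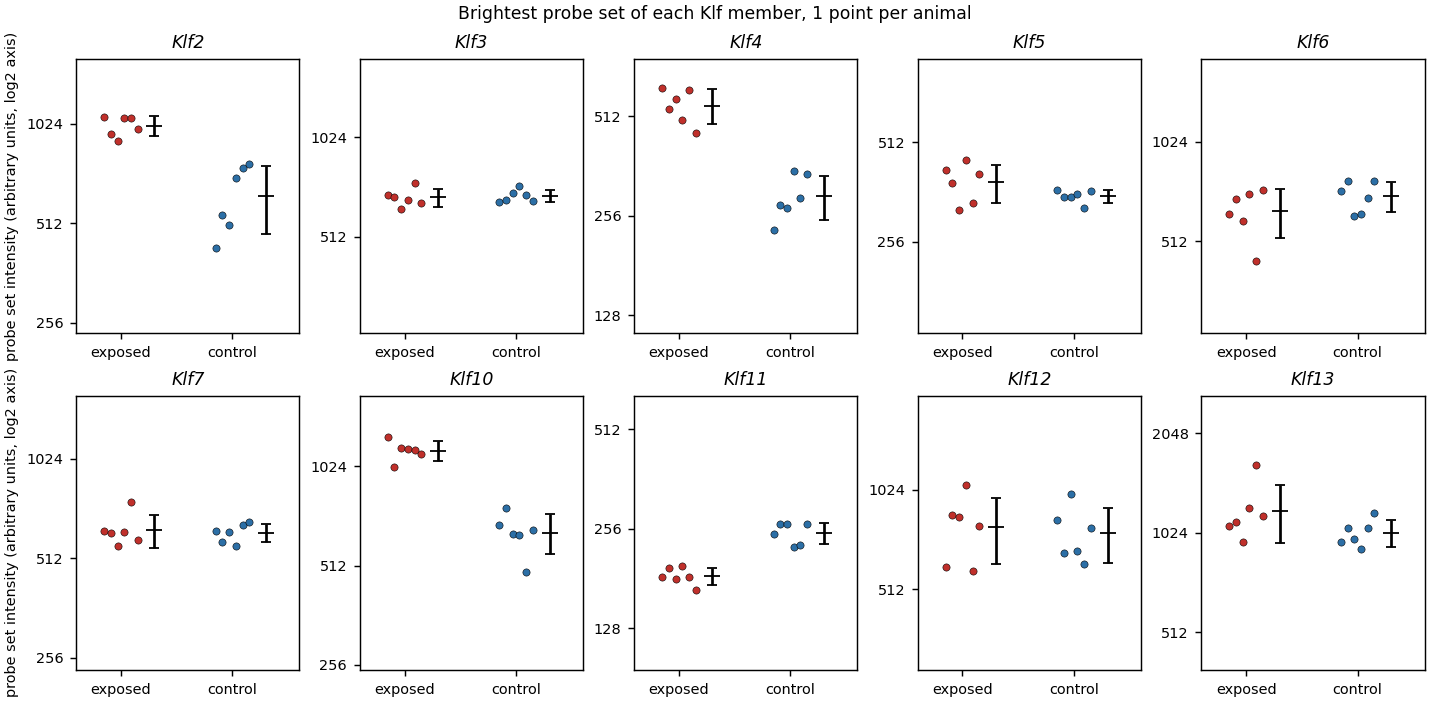
Intensity at the brightest probe set for each of the 10 genes (arbitrary units, log2 axis, the same fold range in every panel), 1 point per animal in order of its number, with the mean and SD beside each group of 6. Klf2, Klf4 and Klf10 lie above the control animals and Klf11 below them without overlap, while the other 6 genes overlap.

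Klf6, an activator tied to axon growth in zebrafish, was lower at each of its 3 probe sets by a small amount, 1 of them called. At 1388986_at the values ran from 364 to 402 with a median of 384 in exposed animals, and from 425 to 466 with a median of 441 in control animals. The groups did not overlap although the change was only -0.22 ± 0.03, or 1.16-fold lower. It was -0.21 within animals 1 to 3 and -0.23 within animals 4 to 6.

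The brightest Klf6 probe set, 1387060_at, had a change of -0.16 ± 0.12, with 446 to 732 in exposed animals and 613 to 780 in control animals. Exposed animal 5 gave the 446, and the other exposed animals had 590 to 732. Over 25 alternatives the change at this probe set ran from -0.21 to -0.02. The dimmest, 1395557_at, had a change of -0.25 ± 0.09, with 182 to 252 in exposed animals and 222 to 299 in control animals, and 4 of 6 were below every control.

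**Figure D3:**
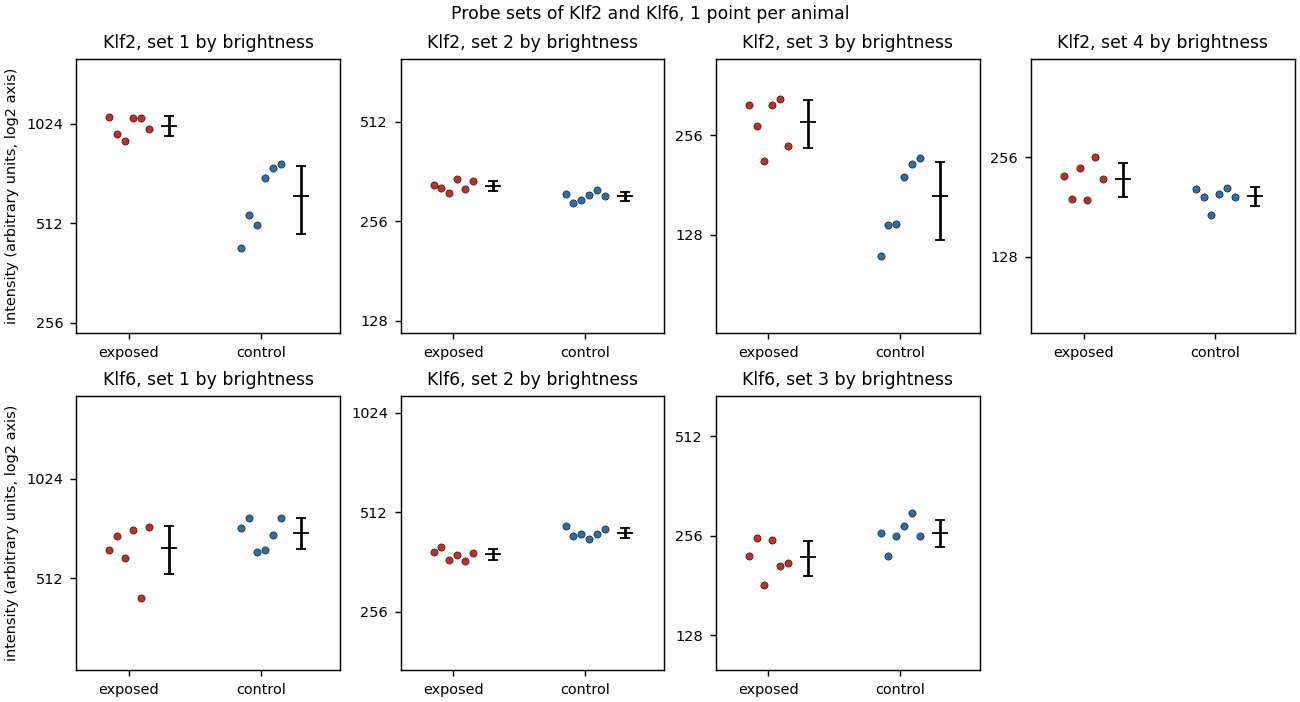
Intensity at the measured probe sets of Klf2 (top, 4) and Klf6 (bottom, 3), in arbitrary units on a log2 axis, 1 point per animal with the mean and SD of 6. Sets 1 and 3 of Klf2 show the larger changes and the split of the control animals, and sets 2 and 4 do not. The groups are apart at set 1 and overlap slightly at set 3. The 3 Klf6 sets are each lower on average in exposed animals.

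Klf5, an activator of growth in epithelial and vascular muscle cells, was not called at its 3 measured probe sets, with changes of 0.13 ± 0.08, 0.24 ± 0.26 and 0.23 ± 0.18. Exposed animal 4 was the highest at each of the 3, with 412 at 1368363_at, where the other exposed animals had 131 to 240 and control animals 135 to 205. The brightest probe set was called once exposed animals 3 and 5, chosen after seeing the data, were left out (change 0.25). They were the lowest exposed animals there, at 320 and 335 against 384 to 451 in the others, so leaving them out had to raise the change. Klf7, an activator of neuronal growth genes, was not called, with changes of 0.02 ± 0.07, -0.06 ± 0.05 and -0.38 ± 0.27. The largest of these rested on exposed animal 5, which had 87.7 at 1380363_at against 267 to 304 in the other exposed animals and 290 to 316 in control animals, and without that animal the change was -0.10.

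Among the genes whose proteins recruit Sin3, Klf10 and Klf11 went in opposite directions. Both are known as early genes of transforming growth factor beta (TGF-beta) signalling. Klf10 ran from 1017 to 1256 with a median of 1148 in exposed animals, and from 490 to 762 with a median of 647 in control animals. The groups did not overlap, and the change was 0.84 ± 0.09 (1.79-fold), with 0.72 within animals 1 to 3 and 0.95 within animals 4 to 6.

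Klf11, a repressor, ran from 167 to 197 with a median of 183 in exposed animals at its brightest probe set, 1379914_at, and from 225 to 265 with a median of 255 in control animals. The groups did not overlap, and the change was -0.43 ± 0.06, or 1.35-fold lower. It was -0.47 within animals 1 to 3 and -0.39 within animals 4 to 6. The other Klf11 probe sets overlapped between groups, with changes of -0.06 ± 0.08 at 1393545_at (110 to 150 in exposed animals, 114 to 144 in control animals) and -0.08 ± 0.05 at 1397266_at, where 4 animals were at the floor of 53.9. Klf13 was not called, with 957 to 1636 in exposed animals and 913 to 1174 in control animals (change 0.20 ± 0.12), and its 1636 was again exposed animal 5.

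The genes whose proteins recruit CtBP had no called probe set. The 3 Klf3 probe sets had changes of -0.01 ± 0.04, -0.03 ± 0.03 and -0.03 ± 0.05, and at the brightest of them the range was 623 to 745 in exposed animals and 654 to 728 in control animals. Klf12 had a change of 0.05 ± 0.17 at its 1 measured probe set, with a wide spread in both groups, 583 to 1061 in exposed animals and 611 to 998 in control animals.

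Variation among animals of 1 group was not used in picking the genes, so 16 correlations within groups were computed, 8 of them added after the values were seen. The Klf2 values of control animals fall into the 2 sets of 3 given above, so no correlation over the 6 is given for them and 3 animals are too few within a set. Klf4 was 231, 276 and 271 in control animals 1 to 3 and 349, 289 and 342 in animals 4 to 6, so the animals low for Klf2 were also the lower 3 for Klf4. In exposed animals Klf2 and Klf4 gave r = 0.20 (n = 6, exact two-sided permutation p = 0.683, adjusted p = 0.797) and rho = 0.31 (exact p = 0.564, adjusted p = 0.752), with r = 0.77 without the 2 animals farthest from the Klf2 median.

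Klf10 and Klf11 gave r = -0.21 in exposed animals (n = 6, exact p = 0.736, adjusted p = 0.797) and r = 0.63 in control animals (n = 6, exact p = 0.174, adjusted p = 0.493). Their rho was 0.03 (exact p = 1, adjusted p = 1) and 0.49 (exact p = 0.356, adjusted p = 0.723), and r without 2 animals 0.69 and 0.22. Klf4 and Nos3 in exposed animals, a relation added after the values were seen, had the highest rho of the 16. It was 0.89 (n = 6, exact p = 0.0333, adjusted p = 0.467), and r was 0.76 (exact p = 0.114, adjusted p = 0.493), or 0.63 without 2 animals. In control animals their rho was 0.66, and Klf4 with Thbd, also added, had 0.49 in exposed and 0.43 in control animals. With the mean of endothelial and mural markers, as planned, Klf4 gave r = 0.65 in exposed and -0.14 in control animals. Klf2 gave r = -0.29 with that mean in exposed animals. Of all 16 relations 0 reached an adjusted p of 0.05.

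**Figure D4:**
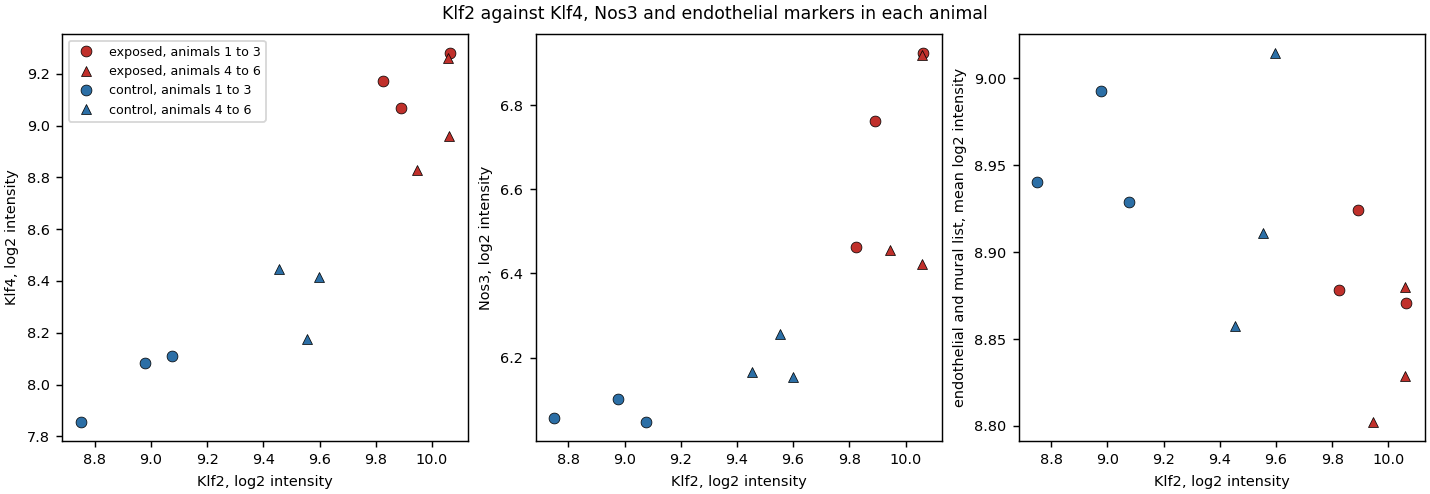
Log2 intensity of Klf2 (horizontal axis, brightest probe set) against Klf4, Nos3 and the mean of 17 endothelial and mural markers, 1 point per animal, red for exposed and blue for control, circles for animals 1 to 3 and triangles for 4 to 6. Control animals 1 to 3 lie lowest for Klf2, below control animals 4 to 6, and all exposed animals lie to the right of both.

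Klf2 and Klf4 are expressed in vessel walls, so markers of these cells are given beside them. Their summed intensity over 17 endothelial and mural genes was 10652 to 11143 in exposed animals and 11017 to 12317 in control animals, and 0 of the 17 were called higher and 1 was called lower (background 2.62% and 0.844% of 14217 genes), with a median change of -0.05. An unadjusted p under 0.05 was reached by 4 of the 17, all lower, and in either direction by 4093 of all 31042 probe sets. The latter include 5224 at the floor on all arrays, so the sets are unlike. The called marker was Slco1a4, an organic anion transporter of brain capillaries, with 1730 to 2059 in exposed animals and 2145 to 2364 in control animals (change -0.29 ± 0.04, adjusted p = 0.00364 in limma). None of these markers was at the floor on all arrays. Meningeal markers summed to 24398 to 27899 in exposed animals and 26502 to 30410 in control animals, with a median change of -0.10 and 0 of 10 called in limma (2 had an unadjusted p under 0.05, both lower). The endothelial covariate was the mean log2 intensity of the 17 endothelial and mural genes. That mean itself differed by -0.08 between the groups (exposed minus control), so a fit with it cannot separate these cells from the exposure. The part of either cell type in the Klf2 and Klf4 values was not otherwise tested.

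Among 17 measured genes of a list of reported Kruppel-like factor targets, 3 were called higher (17.6%, against 2.62% of all genes) and 0 lower (0.844% of all genes), with a median change of 0.03 against 0.00 over all genes. This and the other lists were chosen with earlier results of these data known, so their shares only describe the listed genes. Thbd, the thrombomodulin gene of endothelial cells and a known Klf2 and Klf4 target, ran from 303 to 392.5 with a median of 339 in exposed animals, and from 216 to 251 with a median of 234 in control animals. It did not overlap between groups and rose 1.44-fold (adjusted p = 0.00191 in limma). Nos3, the endothelial nitric oxide synthase gene and another known Klf2 target, ran from 85.7 to 121 in exposed animals and from 66.1 to 76.4 in control animals, near the floor of 53.9. It rose 1.44-fold (adjusted p = 0.0172 in limma), and the call was lost with the floor at the 40th percentile, which covers all its values. With endothelial markers as a covariate its change was 0.60, against 0.53 without, and the adjusted p in limma was 0.0598.

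Cdkn1a, a cell cycle inhibitor that Klf4 and Klf6 are known to activate, ran from 461 to 589 in exposed animals and from 338 to 403 in control animals, and rose 1.42-fold (adjusted p = 0.00251 in limma). Eng, an endothelial TGF-beta coreceptor, had a change of 0.19 ± 0.06 (adjusted p = 0.156 in limma). S1pr1, also a known Klf2 target, had 4440 to 5227 in exposed animals and 4523 to 5346 in control animals (change -0.01 ± 0.05, adjusted p = 1 in limma), and Maoa, a known Klf11 target, had a change of -0.05 ± 0.06 (adjusted p = 0.925 in limma). Both were named after their values were seen.

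In the TGF-beta and Smad list 3 of 12 measured genes were called higher (25%, against 2.62% of all genes) and 0 lower (0.844% of all genes), with a median change of 0.12. Smad3, a receptor-activated Smad, ran from 630 to 686 in exposed animals and from 458 to 539 in control animals, and rose 1.30-fold (adjusted p = 0.00093 in limma). Skil, a Smad corepressor, rose 1.12-fold, with 4066 to 4444 in exposed animals and 3640 to 3925 in control animals (adjusted p = 0.00592 in limma). With endothelial markers as a covariate the Skil change was about as large, 0.16 against 0.17, with an adjusted p of 0.0624 in limma. Smurf1, a ubiquitin ligase of the pathway, rose 1.14-fold (adjusted p = 0.039 in limma), a call lost in 14 of 25 alternatives, 11 of them fits without 1 animal. Tgfb3, a TGF-beta ligand, had a change of 0.26 ± 0.07 (adjusted p = 0.0871 in limma). It was called in 3 of 25 alternatives, with the dimmest 40% of probe sets left out (adjusted p = 0.0404 in limma), without exposed animal 6 (0.0412), and with endothelial markers as a covariate (change 0.40, adjusted p = 0.0213).

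Srf, the serum response factor gene, whose protein binds the CArG box, was the only one of its list of 5 to be called (20%, against 2.62% of all genes), with 1483 to 1686 in exposed animals and 1198 to 1352 in control animals (1.22-fold, adjusted p = 0.00191 in limma). Of the 7 measured ubiquitin ligases of Kruppel-like proteins, Vhl (1.17-fold, adjusted p = 0.0107 in limma) and Smurf1 were called higher (28.6%, against 2.62% of all genes) and 0 lower. Smurf1 is also counted in the TGF-beta list. With endothelial markers as a covariate the Vhl change was 0.21, against 0.23 without, with an adjusted p of 0.103 in limma. Neither the 14 corepressors and coactivators nor the 7 genes of the ERK5 and MEF2 module, known upstream of Klf2 and Klf4, had a called member in limma. Of these lists 0 and 1 had an unadjusted p under 0.05. The 1 was Mef2d of that module, with a change of 0.08 ± 0.04 (unadjusted p = 0.0444, adjusted p = 0.357 in limma). Mef2c, a transcription factor of the same module, had a change of -0.09 (unadjusted p = 0.0669 in limma). Only 1 of 25 alternatives called Mef2c, as lower, with endothelial markers as a covariate (change -0.19, adjusted p = 0.0293 in limma).

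Of 7 other Kruppel-like and 9 Sp genes listed, 4 and 4 were measured, each read at its brightest probe set only. None of these was called in limma (background 2.62% higher and 0.844% lower of 14217 genes). Klf9, known to be induced by glucocorticoid and thyroid hormone, had the smallest p of 4 measured relatives, with 5379 to 6065 in exposed animals and 4927 to 5397 in control animals (change 0.14 ± 0.04, adjusted p = 0.0751). It was called in 5 of 25 alternatives. Klf15 (0.14 ± 0.09, adjusted p = 0.628), Klf1 (-0.05 ± 0.06, adjusted p = 0.866) and Klf16 (0.02 ± 0.03, adjusted p = 1) had larger p-values in limma. Of the Sp genes, which bind the same GC boxes, Sp1, Sp2 and Sp4 had changes from -0.07 to 0.00 and Sp3 was at the floor on all arrays. In this group of 4 and 4 genes, 1 and 0 had an unadjusted p under 0.05.

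**Figure D5:**
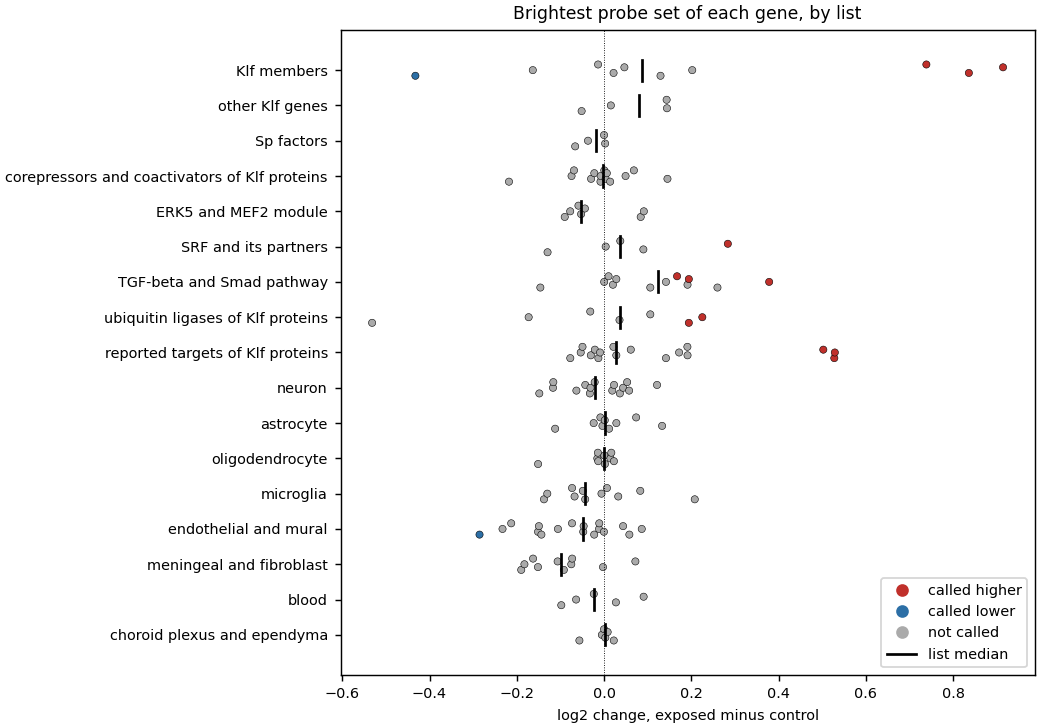
Log2 change (exposed minus control) at each gene's brightest probe set, 1 point per gene, for the 10 members (top row) and each list, with a black bar at the median of the list. Calls in red (higher) stand in the TGF-beta, SRF, ubiquitin ligase and target lists, while the vessel markers have 1 call, lower (blue).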

How the data were processed

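The deposited values are linear intensities, 1 for each probe set on each array. Trizol extraction, an RNeasy cleanup and Affymetrix labelling came first, per the labels, and how the authors turned scans into intensity values is not stated in the labels or the file. Array medians differed by 0.061 on the log2 scale, under the limit of 0.1 for normalizing again. Intensities were raised to the 20th percentile of all values (53.9), taken to log2 and fitted with limma 3.58.1 in R 4.3.3 (group as the only term, eBayes with a trend, prior degrees of freedom 0.79), with Benjamini-Hochberg over 31042 probe sets, 57 array controls left out. The fit was tested on simulated data. An unadjusted p under 0.05 was reached by 4093 of the 31042.

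Members and lists were chosen with earlier results of these data known. Of 182 listed symbols 152 were measured, each by its brightest probe set. Named are all members, up to 4 genes with the smallest p of each list, and Fos, with S1pr1, Maoa and the called vessel marker added. Names come from the platform annotation, and the Entrez ID changed 0 member symbols. The groups come from the labels, which name separate animals. Alternatives were other normalizations, floors, variance models, covariates, the replicate number as a block, and leaving out animals.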

Additional observations from a re-analysis of the deposited data

Results flagged for a closer look

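A single animal stood far from the other 5 of its group in 5 of 106 checks of member probe sets and named genes, and chance gives about 1 in 20. Exposed animal 5 did so at 2 Klf7 probe sets in opposite directions. It had 87.7 at 1380363_at, where the others had 267 to 304, and 760 at 1377618_at, where the others had 557 to 618. Without it the log2 changes were -0.10 and -0.04, against -0.38 and 0.02 with it. Klf7 was not called at either probe set.

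Control animal 3 had 171 at the Klf2 probe set 1394068_x_at (others 195 to 207), and the change was 0.13 without it and 0.17 with it. Control animal 5 had 323 at the Klf5 probe set 1394039_at (others 349 to 366), with changes of 0.11 without it and 0.13 with it. Exposed animal 6 had 462 for Smurf1 (others 523 to 558), and the change was 0.23 without it and 0.19 with it.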

How the results depend on the processing

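Over 25 alternatives Klf10 and the Klf6 probe set 1388986_at kept their call, with changes of 0.76 to 0.89 and -0.23 to -0.19, and Klf4 (0.85 to 0.97) and Klf11 (-0.46 to -0.33) lost it only with the replicate number as a block, which also ended the calls of Klf2, Nos3, Skil, Vhl and Smurf1. The 3 members called higher and 2 called lower became 1 and 1 with this replicate block, and the probe sets called over the whole array 359 higher and 76 lower, against 610 and 186. Whether the numbers pair the animals is not stated, and 6 pairs are too few to settle it. Deviations of same-numbered animals correlated from -0.08 to 0.16, over 0.1 in 2 of 6 pairs, and 2 of 6 correlated best with their own number. Array weights gave 5 members higher and 313 probe sets lower, the RNA quality covariate 5 and 72, the additions being Klf2 probe sets. With endothelial markers as a covariate 369 probe sets were higher and 43 lower. Leaving out 1 animal gave 103 to 182 lower probe sets and 2 to 4 members higher, and leaving out exposed animals 3 and 5, chosen after seeing the data, gave 106 lower. The fewest lower calls came without control animal 3 (103), exposed animal 1 (106), control animal 5 (112) or control animal 6 (117). Klf2 at 1386041_a_at was called in 7 of 25. The correlations were run again without each number, and 0 reached an adjusted p of 0.05. Averaging a gene's probe sets gave 2 calls in place of 3 in the TGF-beta list and 1 in place of 2 among ubiquitin ligases, and called 1 oligodendrocyte marker higher in place of 0.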
